A study of Mus musculus with 16 samples.

Results

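Tubulins are the building blocks of microtubules. An α-tubulin and a β-tubulin pair into the dimer that polymerises, and γ-tubulin sits in the ring complex from which microtubules are nucleated. Each kind is encoded by several genes whose proteins, called isotypes, are nearly alike. Cells also adjust tubulin mRNA to the amount of free dimer: when dimers are in excess, the nascent α- or β-tubulin chain is recognised by the factor Ttc5 while it is still on the ribosome, and the mRNA being translated is degraded.

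The genes described are 10 tubulin genes, namely Tuba1a, Tuba1b, Tuba1c, Tuba4a and Tuba8 for α-tubulin, Tubb2a, Tubb4b, Tubb5 and Tubb6 for β-tubulin, and Tubg1 for γ-tubulin. They were taken by name from the deposited count table, which holds 22392 genes and 67139 transcripts, and each gene was represented by the transcript with the largest count summed over the 16 libraries. The genes were chosen by name with results of these libraries known, and Tuba8 was selected on its measured RNA, footprints and translation efficiency in clone 3. The choice was not a cut on level, since Tubb2b, which is not among the 10, was more abundant in RNA than Tuba8. The table holds 10 further tubulin genes, which are used for comparison.

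The cells were Hepa1-6, a mouse hepatoma line, either wild-type (WT) or carrying a homozygous deletion of exon 5 of Eef1d, which encodes a subunit of the complex that recycles the elongation factor eEF1A. There were 3 knockout lines (KO1, KO2 and KO3), each a single-cell clone made with CRISPR-Cas9. KO1 and KO2 were made with the same guide pair and KO3 with another, and no group received a treatment. Each line had 2 RNA-seq libraries and 2 Ribo-seq libraries, in which ribosome-protected mRNA fragments (footprints) are sequenced, with both libraries of a replicate made from 1 lysate. A clone differs from WT by its single-cell origin as well as by the deletion, and the 2 cannot be told apart within 1 clone. All 3 clones were compared with the same WT libraries.

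Total counts over all transcripts ran from 24726706 to 30748268 in RNA-seq libraries and from 2604223 to 11147904 in Ribo-seq libraries, with KO1 replicate 2 the shallowest of the Ribo-seq libraries. Levels are given as CPM, the count scaled by the library total of the table with 1 transcript per gene, or, to compare genes, as RPKM, which also divides by the counted coding length. Translation efficiency (TE) is the footprint RPKM divided by the RNA RPKM of the same replicate.

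The labels were checked against the deleted exon. Of the Eef1d transcripts, a short form with exon 5 (the 72-base coding exon at chr15:75900691-75900762 of GRCm38, minus strand) and the form that lacks only that exon were compared. The form with the exon had 329 and 360 more RNA counts than the form without it in the WT replicates. In the 6 knockout RNA-seq libraries it had between 120 and 230 fewer. The Ribo-seq libraries differed in the same directions, so all libraries stood with their labels as WT or knockout. This comparison cannot tell KO1, KO2 and KO3 apart. Of the 8 hepatocyte and hepatoma markers listed, 6 to 8 had a count in each RNA-seq library. Alb, Afp and Trf had at least 2264 counts in every one. Apoa1 had 0 to 14 counts, and Ttr and Serpina1a each had 0 counts in some of the libraries. The muscle regulators Myod1, Myf5 and Myog were at 0 throughout.

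How well reads can be assigned to one tubulin gene differed widely between the genes, so the shared sequence is shown first. Every stretch of 30 bases, about the size of a footprint, and of 100 bases, a conservative size for an RNA-seq fragment, was taken from each counted coding sequence and searched for exact copies in GRCm38 and in the annotated transcripts. Tuba1a, Tuba1b and Tuba1c are 97.6% to 98.4% identical in their aligned coding bases. Of their 30-base windows, 81.3%, 90.4% and 93.0% occurred in another tubulin coding sequence, and 52.7%, 68.2% and 81.2% of their 100-base windows did. Tuba8 has 79.6% identity to Tuba1b, with 3.41% of its 30-base windows in another tubulin coding sequence, and Tuba4a has 1.63% of its windows there. Neither shares a 100-base window. The study also used footprints as short as 21 bases, and windows of that size were searched in the same way. Of these shorter windows, 11.9% of those of Tuba8 and 6.40% of those of Tuba4a occurred in another tubulin coding sequence.

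Across the whole counted coding sequence Tuba8 shared 3 windows of 30 bases with Tuba1b, 3 with Tuba1c and 12 with Tuba4a, out of 1291. The stretch in which it is farthest from Tuba1b begins at codon 35, in the loop that carries the acetylated lysine of most α-tubulins. There Tuba8 differs from Tuba1b at 23 of the 30 bases, and Tuba4a at 4. The stretch is shown because reads from it separate Tuba8 from the abundant α genes, with capitals marking the bases that differ from Tuba1b.
Tuba1b, chr15:98933067-98933096, minus strand: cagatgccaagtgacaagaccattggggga
Tuba4a, chr1:75217306-75217335, minus strand: cagatgccCagCgaTaagaccattggTgga
Tuba8, chr6:121220483-121220512, plus strand: ACCTtTGGCaCtCaGGCCaGcaAGATCAAC

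The 3 near-identical α genes were also copied in pseudogenes, which held 89.0% of the 30-base windows of Tuba1a, 92.6% of those of Tuba1b and 89.6% of those of Tuba1c. Of their 100-base windows, pseudogenes held 53.3%, 69.9% and 55.5%.

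Among the β genes, Tubb2a shared 63.6% of its 30-base windows with Tubb2b, its neighbour on chromosome 13. Tubb4b shared 1.02% with other tubulin coding sequences but 78.3% with annotated pseudogenes, and 35.7% of its 100-base windows were in pseudogenes. Tubb5 and Tubb6 shared 3.13% and 5.60% of their 30-base windows with other tubulin coding sequences and none of their 100-base windows. At 21 bases, Tubb4b, Tubb5 and Tubb6 shared 8.15%, 8.95% and 19.4% with other tubulin coding sequences. Among Tubb5, Tubb2a, Tubb4b, Tubb3 and Tubb4a, the stretch with the fewest differences from Tubb5 starts at codon 321. Tubb6, Tubb2b and Tubb1 were not compared for it. Tubb5 and Tubb2a are identical there, and capitals mark the bases that differ from Tubb5.
Tubb5, chr17:35835327-35835356, minus strand: atgtccatgaaggaggtggatgagcagatg
Tubb2a, chr13:34074816-34074845, minus strand: atgtccatgaaggaggtggatgagcagatg
Tubb4b, chr2:25222656-25222685, minus strand: atgtcTatgaaggaggtggaCgaAcagatg
Tubb3, chr8:123421290-123421319, plus strand: atgtcTatgaaggaggtggaCgagcagatg
Tubb4a, chr17:57081035-57081064, minus strand: atgtccatgaaggaggtAgaCgagcagatg

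Tubg1, whose neighbour on chromosome 11 is Tubg2, shared 32.1% of its 30-base windows with it and 5.70% of its 100-base windows. The sources used here do not say how reads that match several genes were counted. The study lists the uniquely mapped reads of each library without saying that counting was limited to them, and in most Ribo-seq libraries, the counts summed over genes exceeded that number. The values of Tuba1a, Tuba1b, Tuba1c, Tubb2a, Tubg1, Tubg2 and, because of its pseudogenes, Tubb4b are therefore uncertain as values of single genes. The same holds for the footprints of low genes with few shared windows, Tuba8 among them.

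The counts themselves differed between assays in the genes with shared windows. Tubb3 had 183 and 139 footprint counts in the WT replicates and 0 RNA counts in both, a count that allows up to 0.275 and 0.258 CPM. Tubb4a had 185 and 158 footprint counts with 2 and 1 RNA counts, and Tuba3a had 33 and 21 with 1 and 1. Tuba3b had 6 footprint counts in each replicate, with 0 and 1 RNA counts. Over all 8 Ribo-seq libraries the footprint count of Tubb4a was 2.37% to 3.69% of that of Tubb5, and that of Tubb3 was 7.62% to 10.4% of that of Tubb6. Tubb3 also lies inside another annotated gene, Gm20388, on the same strand. For Tuba1a the count was 38.2% to 54.1% of that of Tuba1b in RNA-seq libraries and 85.7% to 93.8% in Ribo-seq libraries. The α genes with most shared windows were thus closer to each other in footprints than in RNA in every library. The part that reads matching several genes play in this was not tested.

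**Figure D1:**
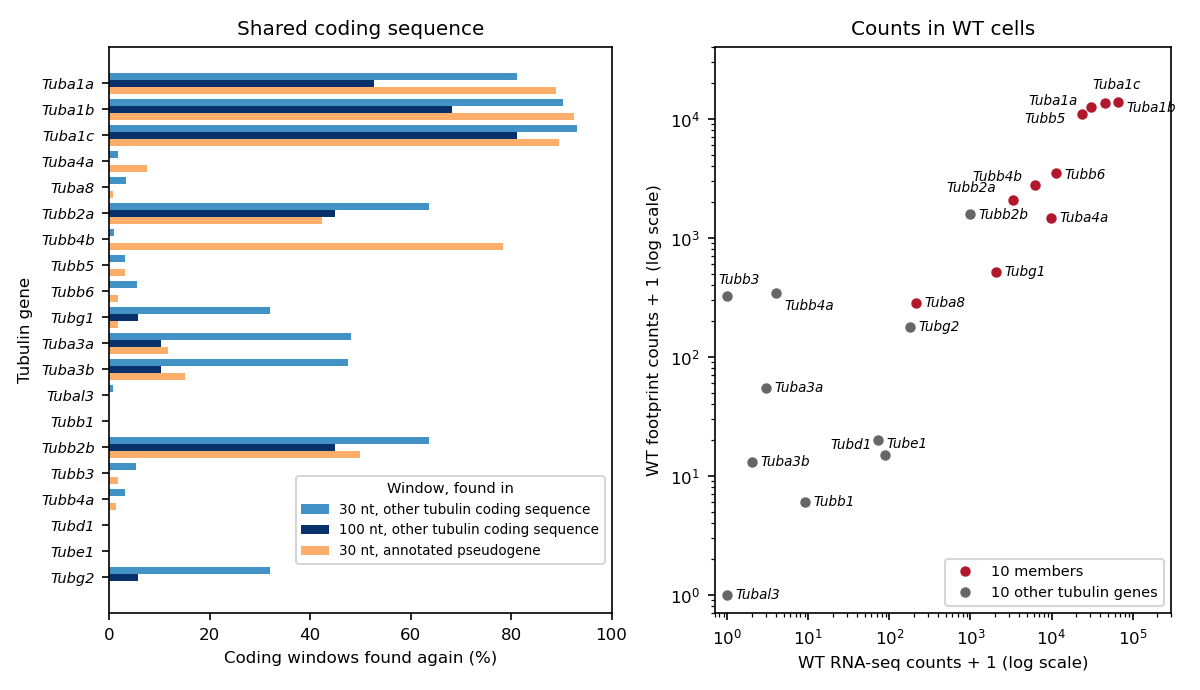
Left, share of coding windows of each tubulin gene (percent) found again in another tubulin coding sequence (30 and 100 bases) or in an annotated pseudogene (30 bases), for the 10 genes described and 10 others. Right, counts plus 1 summed over the 2 WT libraries of each assay on log axes. Tuba1a, Tuba1b and Tuba1c share most of their windows, while Tubb3, Tubb4a and Tuba3a have footprints with almost no RNA counts.

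In WT cells the RNA of the 10 genes spanned from 2190 to 7.25 RPKM. Tuba1b led with 2190 ± 22.9 RPKM (SD, n = 2), ahead of Tuba1c at 1555 ± 45.9 and Tuba1a at 1021 ± 9.42. Of the β genes, Tubb5 had 815 ± 10.0 RPKM, Tubb6 385 ± 39.9, Tubb4b 210 ± 3.76 and Tubb2a 112 ± 1.41. Tuba4a had 333 ± 5.06 RPKM, Tubg1 68.6 ± 0.983 and Tuba8 7.25 ± 1.15. No 2 neighbours in this order overlapped between their replicates. In footprints, Tuba1b at 1747 ± 34.8 RPKM and Tuba1c at 1705 ± 35.5 overlapped, and Tuba1a (1576 ± 7.21) and Tubb5 (1396 ± 16.6) followed. Tuba8 was again the lowest of the 10, at 36.2 ± 1.25 RPKM of footprints.

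Translation efficiency in WT cells varied by gene. The median TE of the 9634 genes with at least 10 counts in every WT library was 0.908, and 8 of the 10 tubulin genes were above it. Tuba8 had the highest, at 4.38 and 5.76 in the 2 replicates, which placed it at percentile 99.3 of those genes. Its 167 and 116 footprint counts were fewer than the 185 and 158 of Tubb4a, which has a like share of shared windows and almost no RNA, and the part of reads from other tubulin genes in the TE of Tuba8 was not tested. Tubb2a had a TE of 2.37 ± 0.171, Tubb5 1.71 ± 0.000656, Tubb4b 1.68 ± 0.0107 and Tuba1a 1.54 ± 0.00719. Tuba4a was lowest, at 0.563 ± 0.0227, and Tuba1b had 0.798 ± 0.00756. Tubb2b and Tubg2, which each share windows with a more abundant neighbour, had TE values of 6.09 ± 0.523 and 3.74 ± 0.174.

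**Figure D2:**
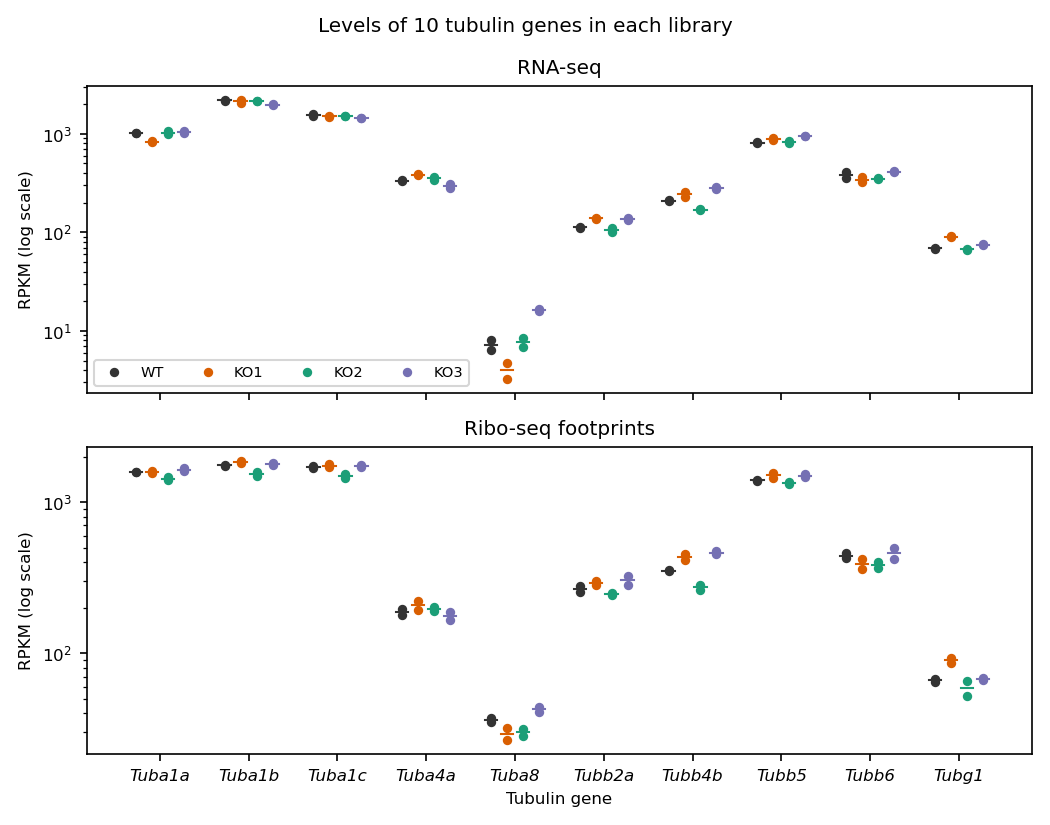
Level of each of the 10 tubulin genes in RPKM on a log axis, RNA-seq above and Ribo-seq footprints below. Each point is 1 library, 2 per line, and the short bar is their mean. Tuba8 is the lowest of the 10 in both assays, nearer to Tubg1 in footprints than in RNA, and its RNA is highest in KO3.

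Tuba8 encodes a divergent α-tubulin isotype. Its RNA was measured at 10.6 and 8.50 CPM in the WT replicates, from 116 and 99 counts. It was 6.22 and 4.29 CPM in KO1, 11.2 and 9.09 CPM in KO2, and 22.0 and 20.8 CPM in KO3, where 285 and 261 counts were seen. KO3 was therefore above WT, KO1 below WT and KO2 overlapping it. Footprints of Tuba8 were 46.6 and 48.9 CPM in WT, 42.0 and 35.1 CPM in KO1, 41.6 and 37.4 CPM in KO2 and 58.3 and 54.2 CPM in KO3. The shallowest library, KO1 replicate 2, gave 40 of these footprint counts.

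As estimated with edgeR, Tuba8 in KO3 was 1.21 log2 units above WT in RNA (SE 0.150) and 0.27 above in footprints (SE 0.121), so its TE was 0.94 lower (log2 −0.94, SE 0.190). These KO3 values led to the choice of the gene, and they are given as a description with no test. The TE ratio was 2.65 and 2.60 in the KO3 replicates, below both WT values of 4.38 and 5.76. In KO1, Tuba8 RNA fell by 0.85 on the log2 scale (SE 0.214, edgeR adjusted p = 0.000975). Its KO1 footprints had a log2 change of −0.24 (SE 0.143, adjusted p = 0.246) and its TE one of 0.59 (SE 0.251, adjusted p = 0.564), with TE ratios of 6.74 and 8.19. In KO2 the TE ratios were 3.72 and 4.12, below both WT replicates, and the log2 change of −0.35 (SE 0.223) had an adjusted p of 1.00. Across the lines the RNA of Tuba8 covered a wider range than its footprints, and the order of the mean TE, which has RNA as its denominator, was the reverse of that of RNA.

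When a single replicate was left out, the log2 change of Tuba8 in KO3 stayed between 1.05 and 1.38 for RNA, 0.21 and 0.32 for footprints and −1.11 and −0.76 for TE. In KO1 it ran from −1.15 to −0.61 for RNA, −0.46 to −0.18 for footprints and 0.40 to 0.77 for TE. In KO2 it ran from −0.07 to 0.25 for RNA, −0.35 to −0.19 for footprints and −0.54 to −0.17 for TE. Tuba8 is overlapped by the antisense gene Gm15856. The RNA-seq kit keeps strand, but whether the counting used it is not given in the sources used here.

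**Figure D3:**
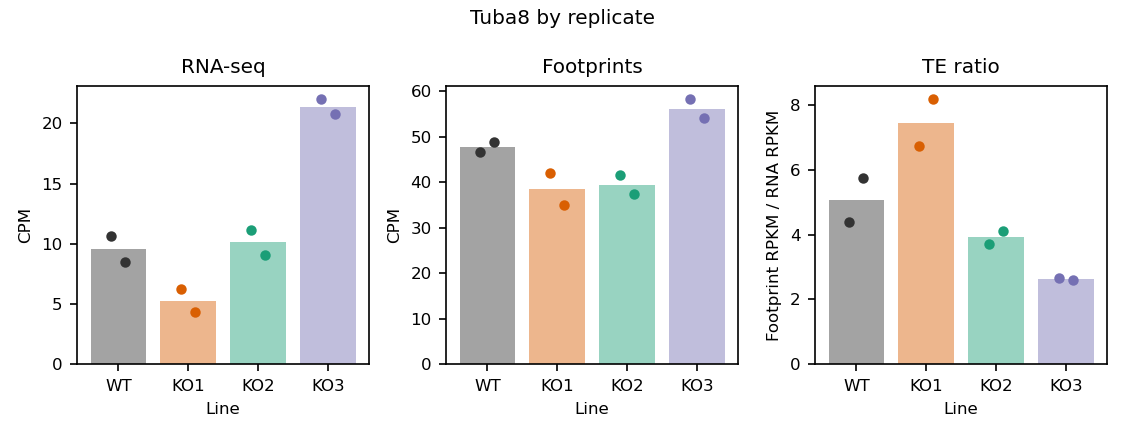
Tuba8 in each line as RNA-seq CPM, footprint CPM and TE ratio (footprint RPKM over RNA RPKM). Points are the 2 replicates and bars their mean. RNA is highest in KO3 (22.0 and 20.8 CPM) and lowest in KO1, while footprints range only from 35.1 to 58.3 CPM.

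Other RNAs moved with Tuba8 across the lines. Of 10614 genes with at least 10 counts in every RNA-seq library, 388 had a Pearson r above 0.9 with Tuba8 in log2 CPM over the 8 libraries, which share only 4 lines. The 5 nearest were Ccny (r = 0.993), C030006K11Rik (0.988), Tnfaip8 (0.988), Shc1 (0.988) and Gorasp2 (0.987). The KO3 RNA that led to the choice of Tuba8 enters these values, and 66.4% of all transcripts differed between clones in RNA. No such count was made for another gene, so the 388 cannot be read as particular to Tuba8. Markers of cell identity also differed between lines. The summed level of the 8 hepatocyte and hepatoma markers was 2507 and 2334 CPM in WT. In KO1 the sums were 921 and 924 CPM, those in KO2 were 1979 and 1824 CPM, and KO3 had 3374 and 3536 CPM, with Alb or Afp the most abundant except in KO2 replicate 2, where it was Trf. The 3 bile duct markers summed to 62.4 and 56.8 CPM in WT. In KO1 they came to 10.7 and 13.5 CPM, those in KO2 to 156 and 144 CPM, and KO3 had 332 and 343 CPM, nearly all of it Krt7. Of the 4 fibroblast markers, which summed to 953 and 902 CPM in WT, 818 and 881 CPM in KO1, 839 and 707 CPM in KO2, and 1072 and 1037 CPM in KO3, nearly all was Dcn, while Col1a2 and Pdgfrb were at or near 0. Col1a1 had 7 and 11 counts in WT, 38 and 26 in KO1, 8 and 11 in KO2, and KO3 had 19 and 23. Of the 4 macrophage markers, Adgre1 and Clec4f were at 0 and Cd68 was the most abundant, with the 4 together at 70 and 64 counts in WT, 52 and 50 counts in KO1 and 32 and 37 counts in KO3. KO2 had 58 and 62 such counts. The 4 endothelial markers summed to 2.39 and 1.46 CPM in WT, 0.964 and 0.667 in KO1, 1.04 and 0.892 CPM in KO2, and KO3 had 0.0772 and 0.717 CPM, mostly Pecam1. The 5 muscle markers, nearly all Des, summed to 2.75 CPM in each WT replicate, 0.526 and 1.05 CPM in KO1, 0.757 and 1.05 CPM in KO2, and 2.16 and 1.91 CPM in KO3. The part of these differences in the Tuba8 result was not tested.

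The first comparison was the RNA of each clone against WT. In KO1, 8 of the 10 genes were called at an edgeR adjusted p under 0.05, 5 higher and 3 lower, where 40.6% of all 37569 transcripts tested were called (19.1% higher and 21.5% lower). The median log2 change of the 10 was 0.04, and 0.00 over all transcripts. With all replicates, lower calls already outnumbered higher ones over all transcripts, but not among the 10 genes. Without KO1 replicate 1, lower calls outnumbered higher ones in both. The median log2 change was then −0.0032 for the 10 and −0.0017 over all transcripts. The share of tubulin genes was not tested against that of all transcripts.

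Tuba1a had 1362 and 1345 CPM of RNA in WT and 1109 and 1103 CPM in KO1, a fall of 0.29 on the log2 scale (SE 0.0356, adjusted p = 1.17e-09). Its paralogs Tuba1b (log2 change −0.03, adjusted p = 0.404) and Tuba1c (−0.05, adjusted p = 0.263) were not called in KO1. Without KO1 replicate 1, however, both were called lower (Tuba1b −0.08, adjusted p = 0.0239, and Tuba1c −0.08, adjusted p = 0.0334). Tubg1, the γ-tubulin of the ring complex, had 91.9 and 90.1 CPM in WT and 122 and 118 CPM in KO1, a log2 rise of 0.40 (SE 0.0680, adjusted p = 1.66e-06). It had the largest rise of the 10 genes in KO1. Tuba4a rose by 0.22 (SE 0.0440, adjusted p = 4.42e-05) and Tubb2a by 0.30 (SE 0.0588, adjusted p = 2.20e-05).

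Apart from the fall of Tuba8 given above, the other KO1 calls were smaller or rested on single libraries. Tubb4b rose by 0.22 (SE 0.0524, adjusted p = 0.000591), and without KO1 replicate 1 by 0.12 with an adjusted p of 0.0840. Tubb5 rose by 0.11 (SE 0.0371, adjusted p = 0.0111). Its adjusted p became 0.0734 without WT replicate 1, 0.190 without WT replicate 2 and 0.123 without KO1 replicate 1. Tubb6 fell by 0.16 (SE 0.0504, adjusted p = 0.00928), but its log2 change was −0.05 without WT replicate 1 and −0.08 without KO1 replicate 2, neither of them called. Tubb6 had 543 and 468 CPM in WT and 476 and 427 CPM in KO1, so these groups overlapped. In DESeq2, which called 25.8% of transcripts, Tubb5 (adjusted p = 0.0740) and Tubb6 (adjusted p = 0.455) were not called.

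In KO2, 1 of the 10 genes was called in RNA, against 15.4% of 37472 transcripts (8.61% higher and 6.77% lower). This was Tubb4b, at 278 and 271 CPM in WT and 221 and 224 CPM in KO2, a fall of 0.30 on the log2 scale (SE 0.0552, adjusted p = 0.000333). The median log2 change of the 10 genes was −0.03, and over all transcripts it was −0.00. Tubb6 had a log2 change of −0.13 (SE 0.0564, adjusted p = 0.129), which was called without WT replicate 2 (−0.23, adjusted p = 0.0321) and without KO2 replicate 1 (−0.14, adjusted p = 0.0259). Tuba4a (0.09, adjusted p = 0.274) was called without KO2 replicate 1 (0.14, adjusted p = 0.0229).

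In KO3, Tuba8 aside, 7 of 9 genes were called in RNA, 5 higher and 2 lower, where 37% of 37543 transcripts were called (18.6% higher and 18.4% lower). The 4 β-tubulin genes all rose. Tubb4b had 374 and 359 CPM against 278 and 271 CPM in WT, a log2 rise of 0.46 (SE 0.0513, adjusted p = 1.31e-10). Tubb2a rose by 0.33 (SE 0.0605, adjusted p = 1.36e-05) and Tubb5 by 0.26 (SE 0.0397, adjusted p = 3.87e-07). These 3 were called without any single replicate. The median log2 change of the 9 genes was 0.14, beside 0.00 for all transcripts.

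The remaining KO3 calls were small. Tubb6 rose by 0.14 (SE 0.0502, adjusted p = 0.0194), but only by 0.04 without WT replicate 2 (adjusted p = 0.728). Tubg1 rose by 0.18 (SE 0.0711, adjusted p = 0.0468) and lost its call without WT replicate 1 (adjusted p = 0.133), WT replicate 2 (adjusted p = 0.235) or KO3 replicate 1 (adjusted p = 0.175). Tuba1b fell by 0.10 (SE 0.0344, adjusted p = 0.0171), with an adjusted p of 0.216 without WT replicate 1 and 0.110 without WT replicate 2. Tuba4a fell by 0.13 (SE 0.0499, adjusted p = 0.0325), and its log2 change was −0.15 without WT replicate 1 (adjusted p = 0.107), −0.12 without WT replicate 2 (adjusted p = 0.228) and −0.06 without KO3 replicate 1 (adjusted p = 0.355). Tuba1a (0.07, adjusted p = 0.136) was called without KO3 replicate 1 (0.10, adjusted p = 0.0133). DESeq2 called 3 of the 9 genes, Tubb2a, Tubb4b and Tubb5, beside 23.4% of all transcripts.

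The second comparison was of footprints, which are the ribosomes on each mRNA. In KO1, 2 of the 10 genes were called, both higher, where 23% of 31875 transcripts were called (10.2% higher and 12.8% lower). Tubb4b had 464 and 457 CPM of footprints in WT and 597 and 540 CPM in KO1 (log2 0.32, SE 0.0677, adjusted p = 9.71e-05). Tubg1 had 85.7 and 89.4 CPM in WT and 123 and 115 CPM in KO1 (log2 0.47, SE 0.104, adjusted p = 0.000189). Both genes, whose counts share windows with pseudogenes or with Tubg2, stood above WT in both replicates, as they did in RNA. Without KO1 replicate 1, which leaves only the shallowest library, the log2 changes were 0.21 for Tubb4b (adjusted p = 0.106) and 0.38 for Tubg1 (adjusted p = 0.104), and Tubb6 was called instead (−0.32, adjusted p = 0.00491). Tuba4a (0.18, adjusted p = 0.0870) was called without KO1 replicate 2 (0.24, adjusted p = 0.0195). The footprints of Tuba1a, whose RNA fell, differed by −0.00 on the log2 scale (SE 0.0586, adjusted p = 0.978). With the replicate number as a block, 4 genes were called in KO1, beside 24.8% of all transcripts, with Tuba4a and Tubb6 added. DESeq2 called Tubb4b alone there, beside 7.92% of the transcripts it tested.

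In KO2 the footprints of 4 genes were called, all lower, where 8.72% of 32278 transcripts were called (4.74% higher and 3.97% lower). Tubb4b had 370 and 345 CPM against 464 and 457 CPM in WT (log2 −0.36, SE 0.0647, adjusted p = 0.000168). Tuba1b (−0.18, SE 0.0553, adjusted p = 0.0301), Tuba1c (−0.19, SE 0.0554, adjusted p = 0.0230) and Tubb6 (−0.21, SE 0.0642, adjusted p = 0.0328) were the other 3. The median log2 change of the 10 genes was −0.17, and of all transcripts −0.00. Only the call of Tubb4b remained in DESeq2, which called 3.21%, and in the table with 1 transcript per gene, where 11.7% were called. Without WT replicate 1 the adjusted p was 0.347 for Tuba1b, 0.311 for Tuba1c and 0.456 for Tubb6, and without KO2 replicate 2 it was 0.197, 0.168 and 0.260. Tuba1b also lost its call without WT replicate 2 (adjusted p = 0.0633).

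In KO3, Tuba8 aside, 2 of 9 genes were called in footprints, both higher, where 24.5% of 32631 transcripts were called (11.6% higher and 12.9% lower). Tubb4b had 620 and 593 CPM against 464 and 457 CPM in WT (log2 0.42, SE 0.0606, adjusted p = 1.22e-07). Tubb2a had 422 and 372 CPM against 334 and 363 CPM (log2 0.22, SE 0.0665, adjusted p = 0.00905). Both were above WT in both replicates. Tubb2a had an adjusted p of 0.174 without WT replicate 1 and 0.271 without KO3 replicate 1, and Tubb6 (0.08, adjusted p = 0.426) was called without KO3 replicate 2 (0.19, adjusted p = 0.0438). DESeq2 called Tubb4b alone, beside 8.45% of all transcripts. The median log2 change of the 9 genes was 0.08, beside 0.00 over all transcripts.

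**Figure D4:**
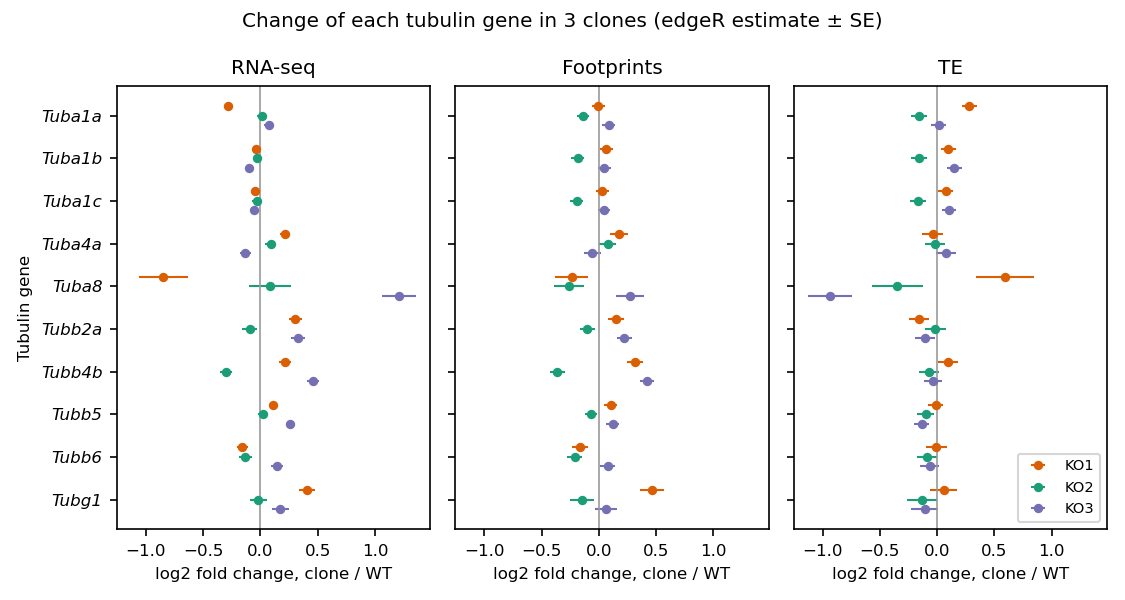
Change of each of the 10 tubulin genes in KO1, KO2 and KO3 against WT as log2 fold change in RNA, footprints and TE, with points for the edgeR estimate and bars for its standard error. Tubb4b is higher in KO1 and KO3 and lower in KO2 in both RNA and footprints. Tuba8 in KO3, shown without a test, has the largest rise in RNA (1.21) and the lowest TE change (−0.94) among these 10.

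The third comparison was TE, the genotype by assay interaction over the 8 libraries of a clone and WT. In edgeR, no member was called in a clone (10 genes for KO1 and KO2, 9 for KO3), and 0.168%, 0.0157% and 0.0939% of all transcripts were. At an unadjusted p under 0.05 there were 2879, 1797 and 2446 transcripts in these comparisons. Beside Tuba8, the gene with the largest TE change was Tuba1a in KO1, with TE ratios of 1.54 and 1.55 in WT and 1.91 and 1.87 in KO1. Its log2 change was 0.28 (SE 0.0653, adjusted p = 0.0570), with no overlap between the replicates. Its adjusted p was under 0.05 in 5 other settings, among them DESeq2 (0.00791, adjusted over 1932 transcripts, of which 4.35% were called) and the fit with 1 term per lysate (0.000730). It was not under 0.05 with a minimum of 10 counts, with 1 transcript per gene or with all 4 lines in 1 fit. With a replicate left out, the log2 change was 0.25 to 0.30. The TE of Tuba1a combines an RNA count and a footprint count that are both uncertain.

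Because all clones were compared with the same WT libraries, differences between clones were tested directly, by an edgeR F test that KO1, KO2 and KO3 are equal. With Tuba8 left out, 7 of 9 genes differed between clones in RNA, beside 66.4% of all transcripts, and 9 of 9 in footprints, beside 51.5%. The lowest adjusted p values were those of Tubb4b, 3.93e-15 in RNA and 2.99e-20 in footprints. In TE, 3 of 9 genes differed, beside 1.06% of all 39662 transcripts. They were Tuba1a (adjusted p = 0.000216), Tuba1b (0.0104) and Tuba1c (0.0426), the 3 genes that share most of their windows. These 3 cannot be counted as independent, and the call of Tuba1c was lost with a minimum of 10 counts in every library and with 1 transcript per gene. In footprints the call of Tuba4a was lost under the same 2 settings and, with that of Tubb6, in DESeq2. Of the other tubulin genes tested, Tubg2 differed in TE between clones (adjusted p = 0.000641), and of the 58 genes that act on tubulin, Tbca did (adjusted p = 0.00618), a folding cofactor that binds β-tubulin.

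The counts of like genes were also summed. If each shared read was given to 1 gene, this removes the split among the genes summed, but not that with Tubb2b or with pseudogenes. If shared reads were counted in every match or dropped, the sums hold them several times or lack them. Which of these applies is not known. The sums were tested beside 1 transcript per gene, where 46.7%, 20.4% and 45.4% were called in RNA in KO1, KO2 and KO3, 26.9%, 11.7% and 30.6% in footprints, and 0.0942%, 0.0173% and 0.104% in TE. The sum of Tuba1a, Tuba1b and Tuba1c had log2 RNA changes of −0.10 in KO1 (SE 0.0333, adjusted p = 0.00725), −0.01 in KO2 (adjusted p = 0.825) and −0.04 in KO3 (adjusted p = 0.343). The sum of Tubb2a, Tubb4b, Tubb5 and Tubb6 rose by 0.27 in KO3 RNA (SE 0.0391, adjusted p = 8.60e-09) and by 0.19 in KO3 footprints (SE 0.0613, adjusted p = 0.0176). In KO1 the β sum had a log2 RNA change of 0.06 (adjusted p = 0.168). The α sum in KO2 footprints was −0.16 (SE 0.0608, adjusted p = 0.0923), and in the same table Tuba1b (−0.17, adjusted p = 0.0675) and Tuba1c (−0.18, adjusted p = 0.0548) were not called either. No sum was called in TE in any clone. The TE of the α sum was 0.12 in KO1 (SE 0.0669), −0.14 in KO2 (SE 0.0747) and 0.12 in KO3 (SE 0.0645).

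The 10 other tubulin genes were low or shared. Tubb1, the platelet β-tubulin, had 3 and 5 RNA counts in the WT replicates. Those of KO1 had 26 and 25, those of KO2 had 1 each, and KO3 had 17 and 13. It was called higher in KO1 (log2 2.68, SE 0.536, adjusted p = 3.92e-05) and in KO3. Tubg2, the second γ-tubulin, had 85 and 95 RNA counts in WT and 199 and 158 in KO1 (log2 1.03, SE 0.167, adjusted p = 7.02e-07), but 49 and 65 in KO3 (log2 −0.79, SE 0.222, adjusted p = 0.00363). Tubg1 and Tubg2 both rose in KO1. Tubd1, the δ-tubulin of centrioles, rose in KO1 in RNA (0.92, SE 0.237, adjusted p = 0.00131) and in footprints, where it had 34 and 13 counts against 5 and 9 in WT (1.73, SE 0.429, adjusted p = 0.000961). Tubb2b rose by 0.40 in KO3 RNA, and its footprints rose by 0.21 in KO1 (adjusted p = 0.0354) and by 0.24 in KO3 (adjusted p = 0.00700). Tube1 was not called in any comparison with WT, and Tubal3 had no RNA count in WT.

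A further 60 genes act on tubulin, in lists for folding, mRNA autoregulation, the γ-tubulin ring, tubulin modification and microtubule binding or severing. In RNA, 13 rose and 14 fell of 57 tested in KO1, 7 rose and 4 fell of 58 in KO2, and 20 rose and 8 fell of 57 in KO3, with median log2 changes of −0.04, 0.03 and 0.06. Of all transcripts, 19.1% rose and 21.5% fell in KO1, with 8.61% and 6.77% for KO2, and KO3 had 18.6% and 18.4%. In footprints, 1 rose and 7 fell of 55 in KO1, 1 rose and 1 fell of 55 in KO2, and 11 rose and 4 fell of 56 in KO3. The shares of all transcripts there were 10.2% higher and 12.8% lower in KO1, with 4.74% and 3.97% for KO2, and KO3 had 11.6% and 12.9%. None was called in TE in any clone against WT.

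Of the folding genes, which deliver and assemble the αβ dimer, 4 rose and 4 fell of 13 in KO1 RNA, beside 19.1% of all transcripts higher and 21.5% lower. In KO3, Tbcel, a cofactor-like protein that destabilises tubulin, fell in RNA (−0.36, SE 0.119) and in footprints (−0.63, SE 0.215). In KO2 footprints the prefoldin subunit Pfdn2 rose by 0.27 (SE 0.0846, adjusted p = 0.0417). Of the 4 autoregulation genes, Cnot10 fell in KO1 in RNA (−0.62, SE 0.106) and footprints (−0.81, SE 0.179), and Scaper footprints fell by 1.20 on the log2 scale (SE 0.356) from 35 and 20 counts in WT to 19 and 5 in KO1. Cnot10 and Cnot11 are subunits of the CCR4-NOT deadenylase, and Scaper links it to Ttc5. In KO3, Cnot11 footprints fell by 0.30 (SE 0.114).

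Of the 11 genes for the γ-tubulin ring and its anchors, 5 rose and none fell in KO3 footprints, beside 11.6% of all transcripts higher and 12.9% lower. They included Mzt1 (1.48, SE 0.443) and Mzt2 (0.82, SE 0.216), small proteins of the ring complex, although Mzt1 had only 6 and 7 footprint counts in WT and 18 and 27 in KO3. The ring subunit Tubgcp4 rose in RNA in KO1 (0.63, SE 0.106) and KO3 (0.69, SE 0.105). Tubgcp3 rose by 0.35 in KO2 RNA (SE 0.103), and Mzt2 fell by 0.51 in KO1 RNA (SE 0.204).

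Among the genes that modify tubulin, Hdac6, which removes the acetyl group from α-tubulin, rose in KO1 (RNA 0.47, SE 0.0638, and footprints 0.42, SE 0.0935) and in KO3 (RNA 0.58, SE 0.0643, and footprints 0.46, SE 0.0847). Ttl, which adds the C-terminal tyrosine to α-tubulin, fell by 1.14 in KO3 RNA (SE 0.259), from 69 and 72 counts in WT to 41 and 29. Svbp, the partner of the enzymes that remove this tyrosine, fell by 1.00 in KO3 RNA (SE 0.317). Ttll12 footprints fell by 0.38 in KO3 (SE 0.0953), and Ttll1 footprints fell by 0.96 in KO1 (SE 0.370), from 39 and 11 counts in WT to 24 and 2. Scaled by library total, the Ttll1 footprints of KO1 and WT overlapped between replicates.

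Among the binding proteins, Map4, the widespread microtubule-associated protein, fell by 0.51 in KO1 RNA (SE 0.0607). Mapre3 rose by 0.68 there (SE 0.239), and Mapre2 rose in KO3 in RNA (0.82, SE 0.0989) and footprints (0.54, SE 0.140). Both bind the growing ends of microtubules. In KO2, Map7 RNA fell by 1.10 (SE 0.211), from 139 and 114 counts to 65 and 54. Map1b RNA rose there by 2.88 (SE 0.528), from 5 and 3 counts to 35 and 26. The severing enzyme Katna1 fell in KO2 in RNA (−0.33, SE 0.0923) and footprints (−0.58, SE 0.151). Clasp1 rose by 0.48 (SE 0.0825) and Kif5b, a kinesin heavy chain, fell by 0.21 (SE 0.0597) in KO2 RNA.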

How the data were processed

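WT cells and 3 exon 5 KO clones of Hepa1-6 (2 replicates per assay) were analysed from the deposited table of raw counts per transcript. Per the study's methods, the authors trimmed reads with fastp 0.21.0, removed ncRNA reads and aligned the rest to mm10 with STAR 2.7.0a under GENCODE annotation, and counted A-site positions in coding sequences without the first and last 5 codons. The study lists uniquely mapped reads per library, but whether counting was limited to them, and the handling of reads matching several genes, are not given in the sources used here. The labels name polyA RNA, whereas the protocols describe rRNA depletion. A length column, also deposited, equalled the coding codons less 10. GRCm38 with an older GENCODE release (vM21) served for shared windows and coordinates.

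RNA and footprints were each tested in edgeR 4.0.16 (R 4.3.3; quasi-likelihood, TMM, filterByExpr, Benjamini-Hochberg over all transcripts) on 4 libraries per clone, TE as the genotype by assay interaction on 8, and differences between clones on all lines. DESeq2 1.42.0, other filters and normalisations, replicate and lysate blocks and leaving out each replicate were alternatives. Scripts were tested on simulated data. Replicates are described as biological, but nothing states separate cultures, so p-values measure the spread between these samples. The number of libraries limits the precision. The 0-count limits (3 counts) cover counting error only.

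Members and lists were chosen with earlier results of these data known. Named were all members, all other tubulin genes, and per comparison up to 3 called list genes with the largest rise and fall.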

Additional observations from a re-analysis of the deposited data

Results flagged for a closer look

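The results singled out here are effects of 1 contrast that differed between the clones, by the edgeR F test of equal effects in KO1, KO2 and KO3. Tuba8 was left out of this list, since its KO3 values led to its choice. In RNA these were Tuba1a (adjusted p = 1.74e-09), Tuba4a (5.69e-07), Tubb2a (1.02e-07), Tubb4b (3.93e-15), Tubb5 (3.88e-05), Tubb6 (7.62e-06) and Tubg1 (4.91e-06). Tubb4b, for example, rose in KO1 and KO3 and fell in KO2, although KO1 and KO2 were made with the same guides. Tuba1a fell in KO1, where Tuba1b and Tuba1c were called only without KO1 replicate 1.

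In footprints these were Tuba1a (adjusted p = 0.00147), Tuba1b (8.23e-05), Tuba1c (0.000176), Tuba4a (0.0283), Tubb2a (8.33e-05), Tubb4b (2.99e-20), Tubb5 (0.00475), Tubb6 (0.000200) and Tubg1 (1.05e-06). In TE these were Tuba1a (0.000216), Tuba1b (0.0104) and Tuba1c (0.0426), which share most of their 30-base windows. The TE call of Tuba1c was lost with a minimum of 10 counts in every library and with 1 transcript per gene. The log2 TE changes of Tuba1a in KO1, KO2 and KO3 were 0.28, −0.16 and 0.01. Those of Tuba1b were 0.10, −0.16 and 0.15, and those of Tuba1c 0.07, −0.17 and 0.10. None was called in a single clone in the main edgeR fit. Tuba1a in KO1 was called with the replicate block, the lysate block and DESeq2, among other settings. It was not called with a minimum of 10 counts, with 1 transcript per gene or with all 4 lines in 1 fit. Of all transcripts, 66.4% differed between clones in RNA, 51.5% in footprints and 1.06% in TE.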

How the results depend on the processing

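Alternatives, apart from leaving out replicates, changed no direction of any member value tested. In RNA 193 of 203 values, in footprints 190 of 203 and in TE 225 of 230 kept their side of the threshold. The number of members called in KO3 RNA was 3 with DESeq2, beside 23.4% of all transcripts. It was 6, with 4 higher and 2 lower, under each of DESeq2 size factors, no filter, a minimum of 10 counts and all 4 lines in 1 fit. In that order, these settings called 13831 of 37543, 13897 of 48678, 12948 of 35117 and 13390 of 38564 transcripts. In footprints DESeq2 called 1 member in each clone, beside 7.92%, 3.21% and 8.45% of transcripts in KO1, KO2 and KO3. With 1 transcript per gene, 1 member was called in KO2, beside 11.7%. With the replicate number as a block, 4 members were called in KO1 footprints, beside 24.8% of transcripts. The TE of Tuba1a in KO1 (1 member) was called with DESeq2 size factors (adjusted p = 0.0340), no filter (0.0128), the replicate block (0.000540), the lysate block (0.000730) and DESeq2 (0.00791). Between clones in footprints, 8 of 9 members were called with a minimum of 10 counts and with 1 transcript per gene, and 7 of 9 with DESeq2. Of all transcripts, these settings called 14344 of 23897, 6405 of 10763 and 9359 of 34303. In TE, 2 of 9 members were called with the minimum or with 1 transcript per gene, beside 471 of 23575 and 123 of 11903 transcripts. The block changed the number of calls by over 1.5 times in no other comparison of members.

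Same-numbered replicates deviated together with correlations of 0.0248 to 0.229 between lines in RNA and 0.0545 to 0.0939 in footprints. The 2 assays of a line, which share lysates, gave 0.0580 to 0.184. For all transcripts, the lysate block called 295 and the replicate block 253 in KO1 TE, and the replicate block 744 between clones in TE. DESeq2 called 9682, 3024 and 8786 transcripts in RNA, 2085, 655 and 2758 in footprints and 9359 between clones in footprints. The lysate block called 10 in KO2 TE. With 1 transcript per gene, fewer are tested by construction, and 5376, 2346 and 5189 were called in RNA, 2777, 1213 and 3179 in footprints, 11, 2 and 12 in TE, and 8695, 6405 and 123 between clones.

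Leaving out 1 replicate changed, in some fits for each of KO1, KO2 and KO3, the number of members called in RNA and in footprints. The number of all transcripts called changed as well. In TE no member gained a call. The single replicate left is then assumed to vary like the other group. Over all transcripts, footprint calls ran from 3439 to 7273, 1447 to 2337 and 4983 to 6465, and KO2 RNA calls from 3350 to 5988, while TE calls were 31 to 63, 1 to 5 and 3 to 17. These log2 values changed sign. They were not called with all replicates, and among the values given only Tuba1b in KO1 RNA without KO1 replicate 1 (−0.080, adjusted p = 0.0239) and Tubb6 in KO3 footprints without KO3 replicate 2 (0.19, adjusted p = 0.0438) were called. For RNA they ran from −0.080 to 0.0078 for Tuba1b in KO1, and in KO2 from −0.030 to 0.057 for Tuba1a, −0.060 to 0.0038 for Tuba1c, −0.074 to 0.25 for Tuba8 and −0.0045 to 0.054 for Tubb5. For footprints they ran in KO1 from −0.040 to 0.022 for Tuba1a and −0.016 to 0.066 for Tuba1c, and in KO3 from −0.14 to 0.038 for Tuba4a and −0.044 to 0.19 for Tubb6. For TE they ran in KO1 from −0.18 to 0.018 for Tuba4a, −0.046 to 0.0034 for Tubb5, −0.088 to 0.031 for Tubb6 and −0.0091 to 0.086 for Tubg1. In KO2 TE they ran from −0.12 to 0.080 for Tuba4a and −0.075 to 0.043 for Tubb2a. In KO3 TE they ran from −0.037 to 0.064 for Tuba1a, −0.23 to 0.0054 for Tubb2a and −0.18 to 0.029 for Tubb6. The cause of these changes was not tested. With 40 footprint counts of Tuba8 in KO1 replicate 2, depth limits its footprint and TE values there.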
